A study of Mus musculus with 8 samples.

Results

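Transcripts of 36 nuclear genes for aminoacyl-tRNA synthetases were followed in mouse left ventricle, 20 for cytosolic enzymes and 16 for mitochondrial enzymes. The members were chosen by gene symbol, with names ending in 2 taken as mitochondrial, and all 36 were among the 13439 genes listed. In 8 libraries, 2 per group, floxed littermates (Lin28afl/fl) and mice with cardiac loss of Lin28a (cKO) underwent sham surgery or transverse aortic constriction (TAC), a band on the aorta against which the left ventricle must pump. Lin28a protein binds RNA and holds back the processing of let-7 precursors into mature microRNA. TAC hearts were taken at day 5, and neither a day for the sham hearts, nor the strain and age of the mice, nor the promoter behind the cardiac deletion was given in the labels. The comparisons bear on the question raised by the title, whether hearts without Lin28a respond differently to pressure overload. Libraries are labelled duplicates, with no word on separate animals, so the spread that p-values measure may be technical.

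Each aminoacyl-tRNA synthetase joins an amino acid to its transfer RNA, the step that sets the genetic code. Cytosolic enzymes supply the ribosomes of the cytosol. Mitochondrial enzymes are imported and supply the ribosomes that make the respiratory chain subunits encoded in mitochondrial DNA, a large task in heart muscle. Lysine and glycine are exceptions, since Kars and Gars give rise to the enzymes of both compartments. Several cytosolic enzymes sit in a multisynthetase complex held by the scaffold proteins Aimp1, Aimp2 and Eef1e1. Many cytosolic synthetase genes are known targets of ATF4, the transcription factor of the amino acid response, which binds C/EBP-ATF response elements (CARE).

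Values are the deposited CPM, each read count divided by its library total on a common scale. Library totals lay between 10315902 and 21871570 reads, and the lowest count of a member in a library was 62 reads. Differences are given on the log2(CPM + 1) scale ± the standard error of a limma fit, and a gene passed at a Benjamini-Hochberg adjusted p under 0.05 over 13120 genes tested. All 36 members were tested. Lin28a itself was not analysed here, and genotypes are therefore as labelled. The library cKO sham 2 stood apart with 44.3 CPM of the X-inactivation RNA Xist, against at most 0.173 CPM elsewhere. It also had 0 CPM of the Y-linked gene Ddx3y, against 32.3 to 63.2 CPM elsewhere. This is the pattern of a female heart among male ones, and sex was not part of the fit. Myl7, a myosin light chain of atrial muscle, reached 133 CPM in floxed sham 2, with 65.0 and 66.2 CPM in the second library of each cKO group, and lay between 0.511 and 6.16 CPM in the remaining 5. Fits without those 3 libraries left a single library in every group but floxed TAC, which alone set the spread, and so had less power to call genes. Their effect sizes are given, while their calls enter only the tally of alternatives. Cardiomyocyte markers were high in every library, with 12 of 12 listed and a sum between 67984 and 97998 CPM.

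In sham hearts of floxed mice the members spanned a wide range of levels. Per kilobase of the longest coding transcript, the lysine enzyme Kars was highest, at 84.8 ± 4.03 CPM (SD, n = 2). The mitochondrial leucine enzyme Lars2 followed at 50.4 ± 14.2 CPM per kilobase, and Gars at 38.3 ± 1.51 CPM per kilobase. The lowest levels were those of Wars2, at 1.60 ± 0.108 CPM per kilobase, and Mars2, at 1.10 ± 0.0292 CPM per kilobase, the mitochondrial tryptophan and methionine enzymes. Mars2 was divided by a transcript of 11.29 kilobases, so its rank depends on the transcript chosen. In CPM its mean of 12.4 was above those of Wars2, at 7.06, and Pars2, at 6.97. In this order 16 of 35 neighbouring pairs had overlapping library values, so many adjacent ranks were not separated.

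In floxed hearts, TAC against sham, every cytosolic member that passed was higher and every mitochondrial member that passed was lower. Of the 20 cytosolic members 9 rose, none fell and 11 did not pass, and of the 16 mitochondrial members none rose, 8 fell and 8 did not pass. Cars, Yars, Rars, Gars, Hars, Sars, Nars, Aars and Tars were the cytosolic genes that rose. Vars2, Cars2, Aars2, Fars2, Sars2, Nars2, Iars2 and Hars2 were the mitochondrial genes that fell. The background was broad in this comparison: 42.4% of all genes tested passed, 27.9% higher and 14.5% lower. The cytosolic share higher was 45% and the mitochondrial share lower was 50%. At an unadjusted p under 0.05 limma also gave 0 lower cytosolic and 0 higher mitochondrial members, and no member was called in those directions by edgeR or DESeq2. That unadjusted threshold gave 4270 higher and 2334 lower of all 13120 genes tested. The median log2 difference was 0.33 over cytosolic members, -0.36 over mitochondrial members and 0.14 over all genes tested. With relative log expression (RLE) scaling, which set the median of all genes to 0.00, 22.8% of genes were higher and 19.8% lower, and the medians were 0.18 and -0.49. That scaling left 6 cytosolic members higher and 8 mitochondrial members lower. Without the 3 libraries high in Myl7 the medians were 0.31 over cytosolic and -0.32 over mitochondrial members. Without floxed sham 1 the mitochondrial count was 3, without floxed sham 2 it was 5 and without floxed TAC 2 it was 4, and without floxed sham 2 or floxed TAC 1 the cytosolic count was 5.

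**Figure D1:**
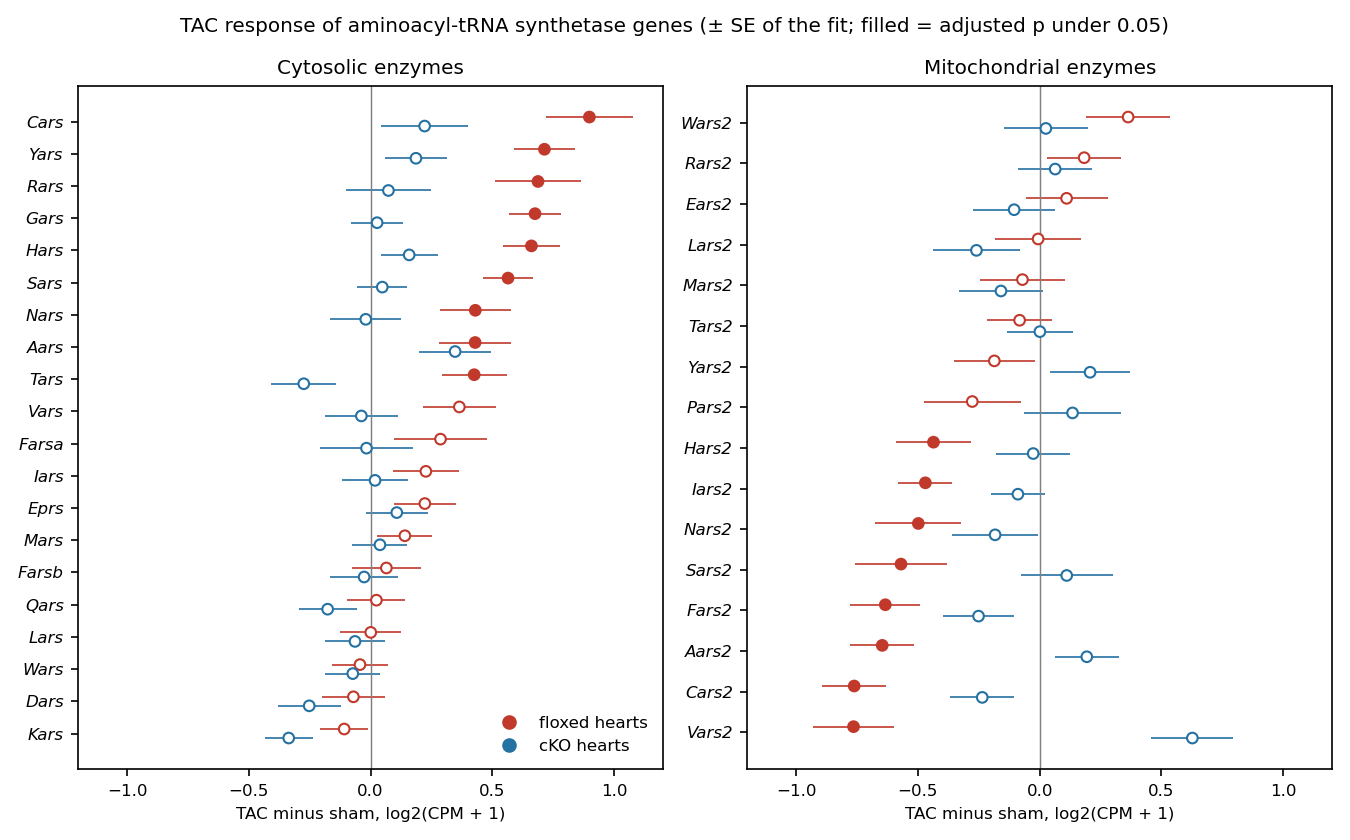
Difference between TAC and sham in log2(CPM + 1) for each cytosolic (left) and mitochondrial (right) synthetase gene, in floxed (red) and cKO (blue) hearts, with bars of 1 standard error and filled points for an adjusted p under 0.05. In floxed hearts 9 cytosolic points lie to the right and 8 mitochondrial points to the left of 0 with filled symbols, and no point of cKO hearts is filled.

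Among cytosolic enzymes the cysteine enzyme gene Cars (chromosome 7, 143557230 to 143600090, mm10) had the largest difference. Its levels were 15.6 and 15.4 CPM in floxed sham, 27.2 and 32.5 CPM in floxed TAC, 20.9 and 15.5 CPM in cKO sham and 19.8 and 22.7 CPM in cKO TAC. Both floxed TAC libraries lay above the other 6, and the floxed difference was 0.90 ± 0.18 (limma, adjusted p = 0.00301). Yars (chromosome 4, 129189760 to 129219607), which charges tyrosine tRNA, stood at 28.9 and 30.8 CPM in floxed sham, 46.2 and 53.2 CPM in floxed TAC, 29.7 and 30.7 CPM in cKO sham and 34.0 and 34.9 CPM in cKO TAC. It rose by 0.71 ± 0.13 in floxed hearts (limma, adjusted p = 0.00163). The sham libraries of both genotypes overlapped for Yars, and the cKO TAC libraries lay between them and floxed TAC.

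Gars (chromosome 6, 55038007 to 55079500), the glycine enzyme gene for both compartments, measured 88.6 and 93.6 CPM in floxed sham, 149 and 143 CPM in floxed TAC, 109 and 101 CPM in cKO sham and 101 and 113 CPM in cKO TAC. The floxed TAC libraries were the highest, whereas the cKO groups overlapped. The floxed rise was 0.67 ± 0.11 (limma, adjusted p = 0.000922). Hars (chromosome 18, 36766528 to 36783205), the histidine enzyme, gave 41.8 and 46.2 CPM in floxed sham, 67.5 and 72.6 CPM in floxed TAC, 50.3 and 46.5 CPM in cKO sham and 53.5 and 54.7 CPM in cKO TAC. Its floxed rise was 0.66 ± 0.12 (limma, adjusted p = 0.00157), with the cKO TAC libraries above every sham library and below floxed TAC. The serine enzyme gene Sars (chromosome 3, 108424865 to 108445209) gave 77.6 and 81.7 CPM in floxed sham, 116 and 120 CPM in floxed TAC, 89.0 and 91.2 CPM in cKO sham and 89.8 and 96.8 CPM in cKO TAC. Sars rose by 0.56 ± 0.10 in floxed hearts (limma, adjusted p = 0.00183), and its cKO groups overlapped. Calls for Cars, Yars, Gars, Hars and Sars held under all 20 alternative settings.

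The other 4 calls among cytosolic members were less stable. Rars (chromosome 11, 35808381 to 35834506), the arginine enzyme, had 52.1 and 45.6 CPM in floxed sham, 83.4 and 75.1 CPM in floxed TAC, 62.3 and 45.1 CPM in cKO sham and 49.7 and 62.8 CPM in cKO TAC. It rose by 0.69 ± 0.17 (limma, adjusted p = 0.0107), and without floxed sham 2 or without floxed TAC 1 it did not pass. The range over the alternatives for Rars was an adjusted p of 0.00139 to 0.0821. Aars, the alanine enzyme, had 107 and 90.7 CPM in floxed sham, 128 and 139 CPM in floxed TAC, 93.9 and 80.5 CPM in cKO sham and 98.2 and 125 CPM in cKO TAC. It rose by 0.43 ± 0.15 (limma, adjusted p = 0.0404). Tars, the threonine enzyme, had 34.2 and 35.7 CPM in floxed sham, 46.6 and 47.9 CPM in floxed TAC, 43.5 and 43.2 CPM in cKO sham and 32.0 and 39.7 CPM in cKO TAC. Its floxed rise was 0.43 ± 0.13 (limma, adjusted p = 0.0275), and its cKO sham libraries were close to floxed TAC. Nars, the asparagine enzyme, had 98.4 and 97.2 CPM in floxed sham and 125 and 139 CPM in floxed TAC, a rise of 0.43 ± 0.14 (limma, adjusted p = 0.0376). Aars, Nars and Tars did not pass with RLE or with trimmed mean (TMM) scaling, with edgeR, with DESeq2, or without any 1 of the 4 floxed libraries. Over the alternatives their adjusted p ranged from 0.0133 to 0.249 for Aars, from 0.00729 to 0.178 for Nars and from 0.0120 to 0.173 for Tars.

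The remaining 11 cytosolic members did not pass. Vars, the valine enzyme, had the largest estimate, 0.36 ± 0.15 (limma, adjusted p = 0.0764). Farsa and Farsb, the subunits of the phenylalanine enzyme, had 0.29 and 0.06. The estimates were 0.23 for Iars, 0.22 for Eprs, 0.14 for Mars, 0.02 for Qars, 0.00 for Lars, -0.04 for Wars, -0.07 for Dars and -0.11 for Kars. Most of these genes encode enzymes of the multisynthetase complex.

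A grouping by assembly, made after the values were seen, set the 8 genes of complex-bound enzymes (Dars, Eprs, Iars, Kars, Lars, Mars, Qars and Rars) apart from the 12 others. Among complex-bound enzymes 1 of 8 rose, Rars, with a median difference of 0.08 that turned to -0.06 with RLE scaling. Among the enzymes outside the complex 8 of 12 rose, with a median of 0.43, and 5 of 12 rose with RLE scaling, with a median of 0.28, beside 27.9% higher among all genes, or 22.8% with that scaling. Without any 1 of the 4 floxed libraries 5 of these 12 rose, and without floxed sham 2 or floxed TAC 1 none of the 8 complex-bound members did. Summed over its 12 genes, the group outside the complex measured 691 to 694 CPM in floxed sham, 923 to 973 CPM in floxed TAC, 691 to 751 CPM in cKO sham and 699.9 to 795 CPM in cKO TAC. The complex-bound sum was 738 to 746 CPM, 791 to 810 CPM, 737 to 809 CPM and 687 to 751 CPM in the same order. The floxed TAC libraries thus stood above all others for the first sum, and met the cKO sham range for the second.

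**Figure D2:**
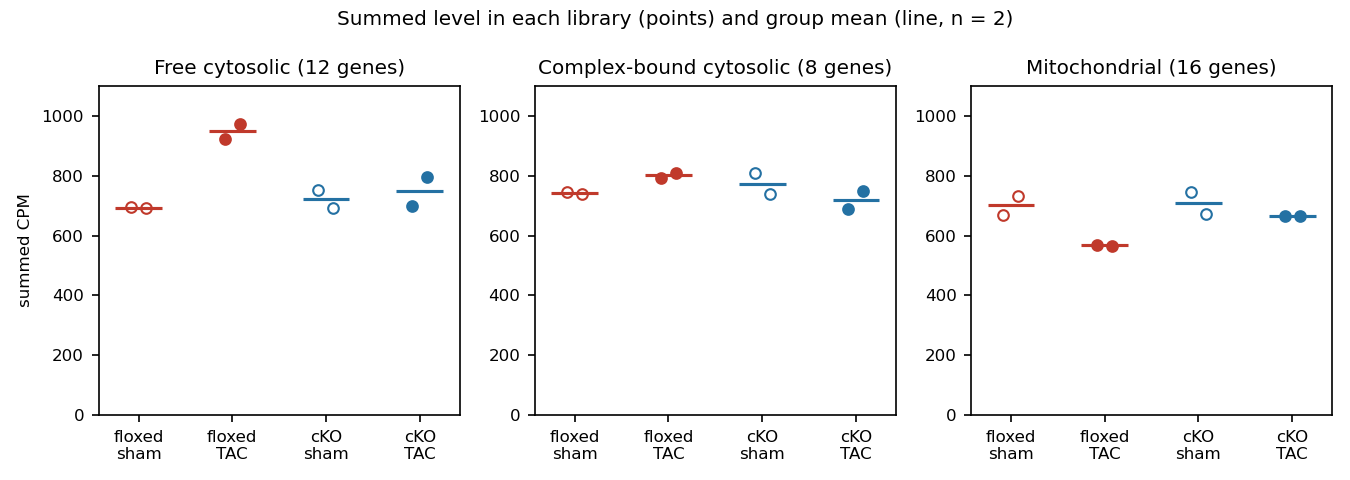
Summed CPM of cytosolic synthetases outside the multisynthetase complex (left), of complex-bound cytosolic synthetases (middle) and of mitochondrial synthetases (right), where points are libraries and lines are group means (n = 2). Floxed TAC libraries reach 923 to 973 CPM in the left panel and drop to 565 to 569 CPM in the right panel, outside the range of every other group.

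Promoters are shown for the 5 cytosolic members whose window holds a CARE core, because these genes share it. The search used the letters TGATGNAA on both strands, from 250 bases before to 50 bases after the start, in RefSeq promoters of build GRCm38.p6. The motif was chosen after the values were seen. Promoters of 13 cytosolic and 14 mitochondrial members were in that table, and Cars, Hars, Lars, Nars, Rars, Vars, Wars, Hars2 and Pars2 were not. Each run below covers 150 bases before to 30 after the start, 5′ to 3′ on the strand of the gene, and capitals mark the CARE core on either strand. They are chr8:111033692-111033871 (plus strand) for Aars, chr6:55037851-55038030 (plus strand) for Gars, chr15:11399629-11399808 (minus strand) for Tars, chr4:129189753-129189932 (plus strand) for Yars and chr13:49681980-49682159 (plus strand) for Iars.
Aars: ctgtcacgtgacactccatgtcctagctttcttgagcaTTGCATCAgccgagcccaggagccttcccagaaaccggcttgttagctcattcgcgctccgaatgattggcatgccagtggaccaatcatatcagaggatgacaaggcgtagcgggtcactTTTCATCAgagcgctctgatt
Gars: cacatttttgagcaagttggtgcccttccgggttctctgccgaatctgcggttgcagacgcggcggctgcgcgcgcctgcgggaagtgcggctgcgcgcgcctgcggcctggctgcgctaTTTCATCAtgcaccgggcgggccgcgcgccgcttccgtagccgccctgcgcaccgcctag
Tars: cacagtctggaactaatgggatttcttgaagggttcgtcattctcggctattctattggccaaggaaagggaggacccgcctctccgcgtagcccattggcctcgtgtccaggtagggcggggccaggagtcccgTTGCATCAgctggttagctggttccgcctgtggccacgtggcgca
Yars: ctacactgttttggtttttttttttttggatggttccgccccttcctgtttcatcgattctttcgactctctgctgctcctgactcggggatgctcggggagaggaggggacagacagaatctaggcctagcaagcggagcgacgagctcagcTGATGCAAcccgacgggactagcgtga
Iars: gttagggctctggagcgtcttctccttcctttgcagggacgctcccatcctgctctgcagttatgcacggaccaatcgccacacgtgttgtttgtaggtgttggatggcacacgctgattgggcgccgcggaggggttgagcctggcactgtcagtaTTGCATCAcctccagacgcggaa

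Aars held 2 matches and the others 1. The motif was present in 5 of 13 cytosolic and 0 of 14 mitochondrial promoters, against 4.51% of the 27025 genes in the promoter table and 2.86% of the 9921 of them listed in these data. Of the 5 genes with a match, Aars, Gars, Tars and Yars rose in floxed TAC hearts, while Iars had 0.23 ± 0.14 (limma, adjusted p = 0.209). Of the 8 cytosolic members without a match, Sars rose. Cars, Hars, Nars and Rars also rose, but their promoters were not in the table, so this split leaves them out. Dars, Eprs, Kars, Mars and Qars, without a match, were complex-bound. Of the genes with a match Iars alone was, so the motif and assembly groupings overlap and could not be told apart. The E-box CACGTG, bound by MYC and related factors, was found in 4 of 13 cytosolic and 1 of 14 mitochondrial members, against 8.09% of the promoter table and 11.7% of its listed genes. The ETS motif CCGGAAG was found in 5 of 13 and 4 of 14, against 9.93% and 19.0%. The nuclear respiratory factor motif was found in 3 of 13 and 2 of 14, against 5.19% and 10.9%. A match is a description of the letters in the window, and binding was not measured.

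Among mitochondrial enzymes the valine enzyme gene Vars2 (chromosome 17, 35655634 to 35667592) had the largest difference. It stood at 45.1 and 33.8 CPM in floxed sham, 24.4 and 20.9 CPM in floxed TAC, 22.7 and 24.8 CPM in cKO sham and 39.7 and 34.8 CPM in cKO TAC. Floxed TAC and cKO sham were the low groups, and floxed sham and cKO TAC the high ones. Vars2 fell by 0.76 ± 0.17 in floxed hearts (limma, adjusted p = 0.0051). Without floxed sham 1 the call ended, and the range over the alternatives was 3.62e-05 to 0.062. Cars2 (chromosome 8, 11513977 to 11550783), for cysteine, had 40.3 and 34.9 CPM in floxed sham, 20.9 and 22.5 CPM in floxed TAC, 37.6 and 37.2 CPM in cKO sham and 32.4 and 30.9 CPM in cKO TAC. Cars2 fell by 0.76 ± 0.13 (limma, adjusted p = 0.00139), and both floxed TAC libraries lay below the other 6.

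Aars2 (chromosome 17, 45506841 to 45520843), for alanine, had 36.2 and 37.0 CPM in floxed sham, 21.2 and 24.9 CPM in floxed TAC, 32.3 and 33.6 CPM in cKO sham and 38.8 and 36.8 CPM in cKO TAC. It fell by 0.65 ± 0.13 in floxed hearts (limma, adjusted p = 0.0034). The floxed TAC libraries lay below the other 6. Fars2 (chromosome 13, 36117412 to 36726280), for phenylalanine, had 69.0 and 72.3 CPM in floxed sham, 49.9 and 40.8 CPM in floxed TAC, 86.4 and 68.3 CPM in cKO sham and 64.3 and 64.5 CPM in cKO TAC. It fell by 0.63 ± 0.14 (limma, adjusted p = 0.0061), again with floxed TAC lowest, and without floxed TAC 2 it did not pass (range over the alternatives 8.27e-05 to 0.0548). The isoleucine enzyme gene Iars2 had 138 and 133 CPM in floxed sham, 97.7 and 97.4 CPM in floxed TAC, 140 and 120 CPM in cKO sham and 126 and 117 CPM in cKO TAC. Iars2 fell by 0.47 ± 0.11 (limma, adjusted p = 0.00729) and did not pass without floxed sham 1 (range 0.000326 to 0.0625). Calls for Aars2 and Cars2 held under all 20 alternatives.

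Sars2, for serine, had 21.7 and 19.4 CPM in floxed sham, 12.7 and 14.4 CPM in floxed TAC, 14.1 and 17.7 CPM in cKO sham and 19.6 and 14.9 CPM in cKO TAC. It fell by 0.57 ± 0.19 (limma, adjusted p = 0.0351), and its floxed TAC values overlapped those of cKO sham. The asparagine enzyme gene Nars2 fell by 0.50 ± 0.18 (limma, adjusted p = 0.0455) and the histidine enzyme gene Hars2 by 0.44 ± 0.15 (limma, adjusted p = 0.0438). Sars2 and Hars2 did not pass without any 1 of the 4 floxed libraries, and Nars2 without floxed sham 1, floxed sham 2, floxed TAC 2 or either cKO sham library. Over the alternatives the adjusted p ranged from 0.0068 to 0.183 for Sars2, from 0.0181 to 0.252 for Nars2 and from 0.0108 to 0.172 for Hars2. The 8 that did not pass were Pars2 at -0.28, Yars2 at -0.19, Tars2 at -0.08, Mars2 at -0.07, Lars2 at -0.01, Ears2 at 0.11, Rars2 at 0.18 and Wars2 at 0.36. They include the abundant Lars2, with 157 and 236 CPM in floxed sham, 192 and 191 CPM in floxed TAC, 239 and 205 CPM in cKO sham and 171 and 200 CPM in cKO TAC, where the floxed sham libraries enclosed all TAC values.

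**Figure D3:**
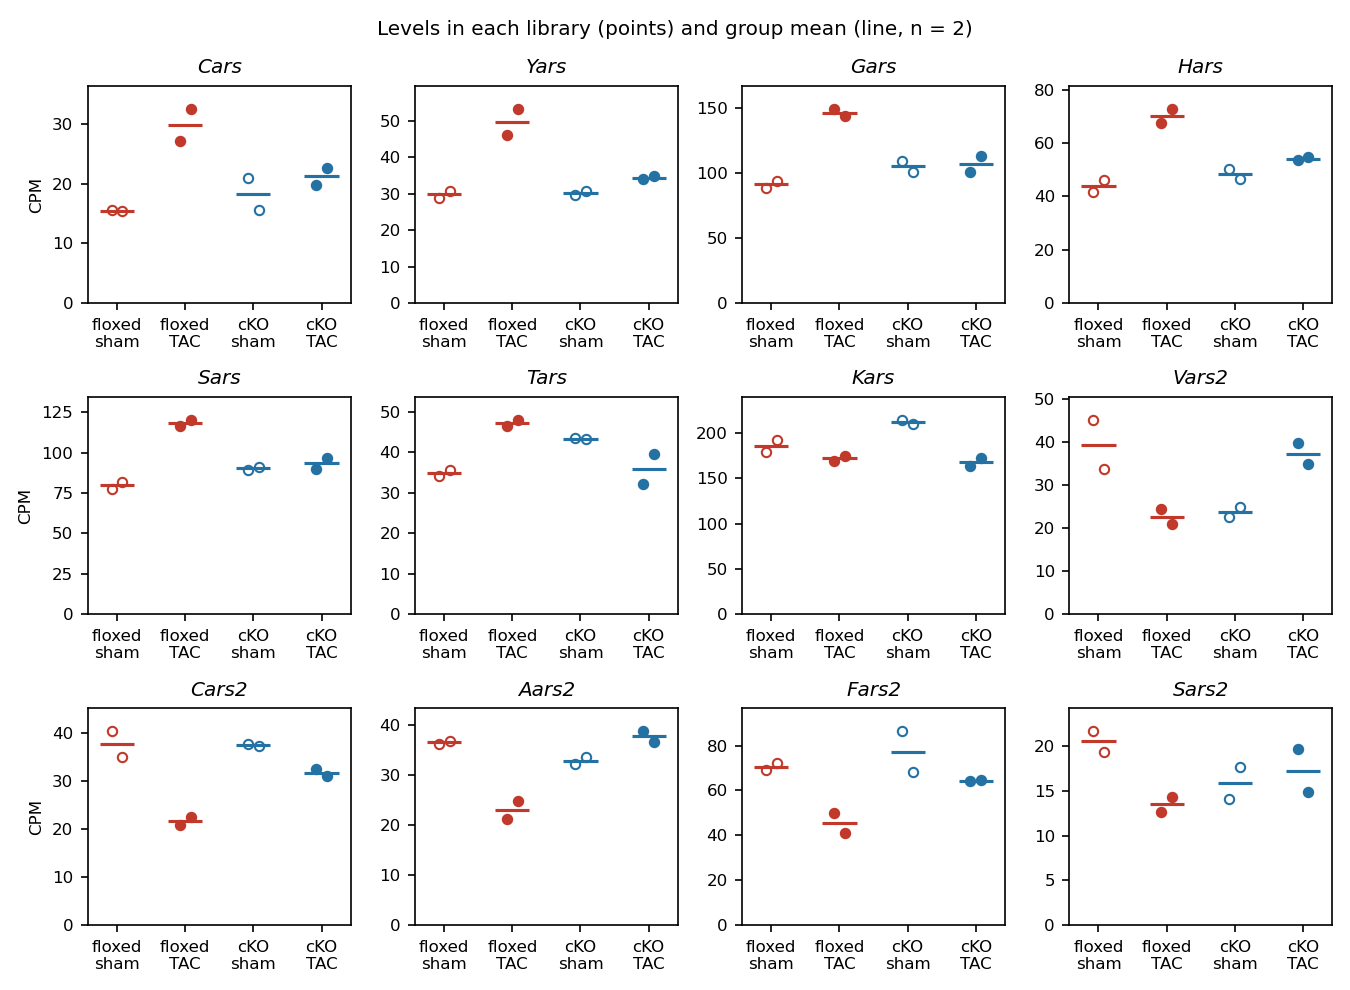
CPM of 12 synthetase genes in each library, with open points for sham, filled points for TAC, red for floxed and blue for cKO hearts, and a line at the group mean (n = 2), on axes that start at 0. Cars, Yars, Gars, Hars and Sars are highest in floxed TAC, Cars2, Aars2 and Fars2 are lowest there, and Vars2 has its 2 low groups in floxed TAC and cKO sham.

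For 13 amino acids 1 cytosolic and 1 mitochondrial member serve that amino acid alone, so the enzymes could be set side by side. Phenylalanine, with subunits Farsa and Farsb in the cytosol, and glutamate and proline, which share Eprs, were not counted among them. In floxed hearts Farsa had 0.29 and Farsb 0.06 against -0.63 for Fars2, and Eprs had 0.22 against 0.11 for Ears2 and -0.28 for Pars2. Over the 13 pairs the floxed cytosolic difference was above the mitochondrial one for 12 of 13 amino acids, tryptophan being the exception, and the median gap was 0.90. Both enzymes passed in opposite directions for 5 amino acids: alanine, asparagine, cysteine, histidine and serine. Both calls held under all 20 alternatives for cysteine alone. Aars and Nars did not pass with RLE or TMM scaling, edgeR or DESeq2. The calls of Hars2, Nars2 and Sars2 were lost when single floxed libraries were left out. Signs were opposite for 12, with arginine the exception. Among the 12, tryptophan had the reverse order, at -0.04 for Wars and 0.36 for Wars2, and leucine lay near 0, at 0.00 and -0.01. With RLE scaling the cytosolic estimates above 0 went from 17 to 13 of 20, so the sign count can shift with scaling. Without it 7768 of all 13120 genes tested were above 0. In cKO hearts the cytosolic difference was the larger for 8 of 13, the median gap was 0.11 and no enzyme passed. The summed mitochondrial level as a ratio to the summed cytosolic level was 0.463 and 0.513 in floxed sham, 0.332 and 0.317 in floxed TAC, 0.477 and 0.471 in cKO sham and 0.480 and 0.430 in cKO TAC. A ratio within a library does not depend on its scaling, and the floxed TAC libraries had the lowest values. In bulk tissue fewer cells of a type and less RNA per cell cannot be told apart.

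**Figure D4:**
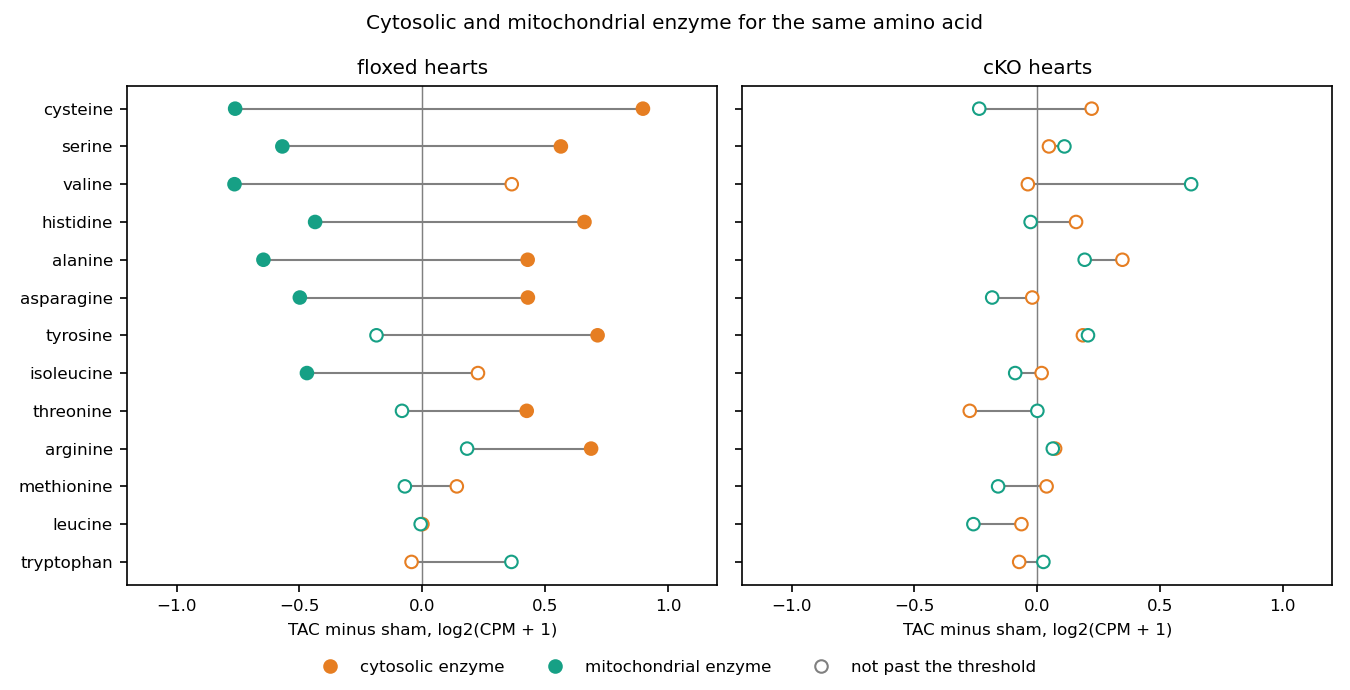
Difference between TAC and sham in log2(CPM + 1) for the cytosolic (orange) and mitochondrial (green) enzyme of the same amino acid in floxed (left) and cKO (right) hearts, with filled points for an adjusted p under 0.05. The gap between the enzymes has a median of 0.90 in floxed hearts and 0.11 in cKO hearts.

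Markers of other cells moved in the same comparison. In floxed hearts 11 of 11 macrophage markers rose, and their sum went from 307 to 336 CPM in sham to 1383 to 1419 CPM in TAC. Of 9 fibroblast markers 7 rose, and the sum went from 1515 to 1636 CPM to 12032 to 15479 CPM. Of 12 cardiomyocyte markers 6 fell and 2 rose, and the sum went from 87962 to 97998 CPM to 67984 to 69801 CPM. In cKO hearts 10 of 11 macrophage and 4 of 9 fibroblast markers rose, 0 of 12 cardiomyocyte markers passed, and the TAC sums were 532 to 718 CPM, 3458 to 5805 CPM and 80320 to 93549 CPM. The cKO sham sums were 268 to 319 CPM, 1628 to 1847 CPM and 82169 to 86750 CPM. Without the 3 libraries high in Myl7 each cKO group held a single library, so the marker rises in cKO hearts could not be judged in that fit. The part of these cells in the synthetase differences was not tested.

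TAC against sham in cKO hearts gave no member past the threshold, with 0 of 20 cytosolic and 0 of 16 mitochondrial members called by limma, limma-voom, edgeR or DESeq2. In all, 2.53% of the genes tested passed in this comparison, 2.09% higher and 0.442% lower. At an unadjusted p under 0.05 limma gave 1 cytosolic member higher, 1 cytosolic member lower and 1 mitochondrial member higher. Of all 13120 genes tested it gave 1338 higher and 804 lower. The medians were 0.00 for cytosolic members, -0.01 for mitochondrial members and 0.02 for all genes. The largest cytosolic estimates were those of Aars, at 0.35 ± 0.15 (limma, adjusted p = 0.281), Kars, at -0.34 ± 0.10 (limma, adjusted p = 0.119), and Tars, at -0.27 ± 0.13 (limma, adjusted p = 0.344). Kars (chromosome 8, 111993443 to 112011323) measured 179 and 192 CPM in floxed sham, 169 and 175 CPM in floxed TAC, 214 and 210 CPM in cKO sham and 163 and 173 CPM in cKO TAC. Its cKO sham libraries were the highest of the 8, and both TAC groups overlapped. The largest mitochondrial estimates were those of Vars2, at 0.63 ± 0.17 (limma, adjusted p = 0.0918), and Lars2, at -0.26 ± 0.18 (limma, adjusted p = 0.516).

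In sham hearts no member differed by genotype past the threshold, and 0.0534% of all genes did, 0.0457% higher and 0.00762% lower in cKO. At an unadjusted p under 0.05 limma gave 1 cytosolic member higher and 1 mitochondrial member lower in cKO, and limma-voom, edgeR and DESeq2 called none. The unadjusted counts over all 13120 genes tested were 530 higher and 483 lower. The medians were 0.03 for cytosolic members, -0.02 for mitochondrial members and 0.02 for all genes. The largest cytosolic estimates, cKO against floxed, were 0.30 ± 0.13 for Tars (limma, adjusted p = 0.641), 0.21 ± 0.18 for Cars (limma, adjusted p = 0.788) and 0.20 ± 0.11 for Gars (limma, adjusted p = 0.703). The largest mitochondrial estimates were -0.70 ± 0.17 for Vars2 (limma, adjusted p = 0.434) and -0.36 ± 0.19 for Sars2 (limma, adjusted p = 0.699). For Tars, Gars, Vars2 and Sars2 the sham libraries of the genotypes did not overlap, but those differences did not pass over all genes. The same separation was seen for members with smaller estimates, such as Kars, Sars and Mars. Its share over all genes was not counted, so it is not read as a genotype difference.

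The direct comparison of genotypes after TAC, cKO against floxed, shares the floxed TAC libraries with the floxed TAC response, so the same libraries set both values. Of the 20 cytosolic members 4 were lower in cKO (Gars, Hars, Sars and Yars) and none was higher, and of the 16 mitochondrial members 4 were higher (Aars2, Cars2, Fars2 and Vars2) and none was lower. Of all genes 24.9% passed, 16.5% lower and 8.39% higher, so the cytosolic share of 20% was near the background. The mitochondrial share was 25%. With RLE scaling 13.4% of all genes were lower and 10.8% higher, 2 cytosolic members were lower and 5 mitochondrial members higher. At an unadjusted p under 0.05 limma gave 0 higher cytosolic and 0 lower mitochondrial members, and edgeR and DESeq2 called none in those directions. The unadjusted counts over all 13120 genes tested were 1694 higher and 3247 lower. The median was -0.29 over cytosolic members, 0.30 over mitochondrial members and -0.10 over all genes. All 20 cytosolic estimates were below 0, or 19 of 20 with RLE scaling. Without that scaling 7774 of all 13120 genes tested were below 0. The 20 estimates come from the same libraries, so their signs are not separate observations.

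Yars differed by -0.51 ± 0.13 between cKO and floxed TAC hearts (limma, adjusted p = 0.0174) and Gars by -0.45 ± 0.11 (limma, adjusted p = 0.0157). Hars differed by -0.37 ± 0.12 (limma, adjusted p = 0.0454) and Sars by -0.34 ± 0.10 (limma, adjusted p = 0.0379), and neither passed with RLE or TMM scaling, edgeR or DESeq2. Rars, at -0.49 ± 0.17 (limma, adjusted p = 0.066), and Cars, at -0.47 ± 0.18 (limma, adjusted p = 0.0839), had estimates of like size that did not pass. For each of these 6 genes the cKO TAC libraries lay below both floxed TAC libraries. The mitochondrial differences were 0.70 ± 0.17 for Vars2 (limma, adjusted p = 0.0158), 0.69 ± 0.13 for Aars2 (limma, adjusted p = 0.00604), 0.52 ± 0.13 for Cars2 (limma, adjusted p = 0.0185) and 0.50 ± 0.14 for Fars2 (limma, adjusted p = 0.032). Both cKO TAC libraries lay above both floxed TAC libraries for these 4 genes. Both sets of genes were named for differences between the same libraries, so these separations are not further evidence. Their share over all genes was not counted. Of the 8 calls only that of Aars2 held under all 20 alternatives, with an adjusted p of 0.000129 to 0.0461. Without floxed TAC 2, or without cKO TAC 1, 0 cytosolic members and 1 mitochondrial member passed. Without the 3 libraries high in Myl7 the medians were -0.37 over cytosolic and 0.37 over mitochondrial members, and calls could not be judged. Without floxed TAC 1, 1 cytosolic member passed, and without either floxed sham library 2 did. Here too marker levels moved, with 0 of 11 macrophage markers higher and 11 lower in cKO, 5 of 9 fibroblast markers lower and 7 of 12 cardiomyocyte markers higher, and their part was not tested.

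The genotype by surgery interaction subtracts the floxed TAC response from the cKO one and uses all 4 groups. Of the 20 cytosolic members 3 had a lower response in cKO and none a higher one, and of the 16 mitochondrial members 2 had a higher response and none a lower one. Of all genes 14.1% passed, 9.18% lower and 4.93% higher, or 6.99% and 6.45% with RLE scaling, which left 1 cytosolic and 2 mitochondrial members. At an unadjusted p under 0.05 limma gave 0 higher cytosolic and 0 lower mitochondrial members, beside 1425 higher and 2724 lower of all 13120 genes tested. The medians were -0.27, 0.38 and -0.13 for cytosolic members, mitochondrial members and all genes. All 20 cytosolic estimates were below 0, but 14 of 20 with RLE scaling. Without that scaling 7857 of all 13120 genes tested were below 0, and the 20 estimates again share the same libraries. The cytosolic calls were Tars, at -0.70 ± 0.19 (limma, adjusted p = 0.0376), Gars, at -0.65 ± 0.15 (limma, adjusted p = 0.0247), and Sars, at -0.52 ± 0.14 (limma, adjusted p = 0.043). Cars had -0.68 ± 0.25 and did not pass (limma, adjusted p = 0.101). For Tars the difference combines a higher level in cKO sham with a lower one in cKO TAC. The mitochondrial calls were Vars2, at 1.39 ± 0.24 (limma, adjusted p = 0.00943), and Aars2, at 0.84 ± 0.19 (limma, adjusted p = 0.0196). Vars2 fell with TAC in floxed hearts and had 0.63 in cKO hearts, which did not pass. None of these 5 calls held under all 19 alternatives: Vars2 was lost without floxed sham 1 alone (range of adjusted p 7.24e-06 to 0.0528), whereas edgeR and DESeq2 called 0 cytosolic members. Leaving out any of the 4 floxed libraries, cKO sham 1 or cKO TAC 1 left 0 cytosolic calls, and leaving out cKO sham 2 left 1. Without the 3 libraries high in Myl7 the medians were -0.44 over cytosolic and 0.30 over mitochondrial members, and calls could not be judged.

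Partners of the synthetases were counted from lists chosen by function, to be read beside 27.9% of all genes higher and 14.5% lower for TAC in floxed hearts. Of the 3 scaffold genes of the multisynthetase complex, 2 rose in floxed TAC hearts. Eef1e1 went from 8.11 and 9.66 CPM to 21.9 and 19.4 CPM, a rise of 1.13 ± 0.30 (limma, adjusted p = 0.0135), and Aimp2 rose by 0.38 ± 0.12 (limma, adjusted p = 0.0258). Aimp1 had 0.24 ± 0.11 and did not pass (limma, adjusted p = 0.102). With RLE scaling 1 of 3 rose. None passed in cKO hearts, where 2.53% of all genes did. Aimp2 was lower in cKO than in floxed TAC hearts, at -0.36 ± 0.12 (limma, adjusted p = 0.0479), a call that RLE scaling ended.

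Amino acid transporters, which bring the substrates of these enzymes into the cell, had a median of 1.16 in floxed hearts, where 10 of 15 rose and none fell, beside 27.9% of all genes higher. Slc1a4, a carrier of neutral amino acids, rose by 2.65 ± 0.32 (limma, adjusted p = 0.000206). Slc7a5, the carrier of large neutral amino acids, rose by 1.86 ± 0.22 (limma, adjusted p = 0.000175), and Slc7a2, a carrier of cationic amino acids, rose by 1.80 ± 0.35 (limma, adjusted p = 0.00268). Of the 15 none passed in cKO hearts, beside 2.53% of all genes, with a median of 0.14. At an unadjusted p under 0.05 limma gave 0 of the 15, beside 1338 higher and 804 lower of all 13120 genes tested. After TAC 9 of 15 were lower in cKO than in floxed hearts, or 7 of 15 with RLE scaling, beside 16.5% and 13.4% of all genes.

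Of 28 genes of the amino acid response 15 rose and 1 fell in floxed hearts, with a median of 0.57, beside 27.9% of all genes higher and 14.5% lower. The growth factor gene Gdf15 rose by 3.24 ± 0.54 (limma, adjusted p = 0.0011), the transcription factor gene Atf3 by 2.29 ± 0.32 (limma, adjusted p = 0.000428) and the mitochondrial folate enzyme gene Mthfd2 by 2.21 ± 0.26 (limma, adjusted p = 0.000175). Atf4 had 56.4 and 57.1 CPM in floxed sham, 89.1 and 114 CPM in floxed TAC, 42.6 and 47.6 CPM in cKO sham and 83.0 and 67.5 CPM in cKO TAC. It rose by 0.82 ± 0.15 in floxed hearts (limma, adjusted p = 0.00201) and by 0.72 ± 0.15 in cKO hearts (limma, adjusted p = 0.0411). Atf4 was the 1 gene of this list that passed in cKO hearts, where the median was 0.09 and 2.53% of all genes passed. Its interaction was -0.10 ± 0.21 (limma, adjusted p = 0.793). Its call in cKO hearts could not be judged without the 3 libraries high in Myl7, since each cKO group then held a single library. The asparagine synthetase gene Asns, a further target of the same factor, had 1.30 ± 0.42 in floxed hearts (limma, adjusted p = 0.0313) and -0.41 ± 0.42 in cKO hearts (limma, adjusted p = 0.692), and this gene and Atf4 were chosen after their values were seen. Other genes of the list did not pass in floxed hearts, among them Ddit3 at -0.18, Trib3 at -0.06 and Atf5 at 0.01. Atf4 activity is set largely by translation of its transcript, which these libraries do not measure.

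Factors that act with the synthetases in translation were counted apart by compartment. Of 31 cytosolic initiation, elongation and release factors 11 rose and 6 fell in floxed TAC hearts, with a median of 0.20, and 7 rose and 6 fell with RLE scaling, with a median of 0.06. These shares are near those of all genes, 27.9% higher and 14.5% lower, or 22.8% and 19.8% with RLE scaling. The initiation factor gene Eif1a rose by 1.87 ± 0.21 (limma, adjusted p = 0.00014), the elongation factor gene Eef1a1 by 1.47 ± 0.13 (limma, adjusted p = 5.09e-05) and Eif6, which acts on the large ribosomal subunit, by 1.09 ± 0.13 (limma, adjusted p = 0.000194). Of 22 mitochondrial translation factors and tRNA enzymes 7 fell and 1 rose, with a median of -0.31, and 12 fell and 0 rose with RLE scaling, with a median of -0.45, beside 14.5% of all genes lower, or 19.8% with RLE scaling. Trmt5, a tRNA methyltransferase, fell by 1.01 ± 0.16 (limma, adjusted p = 0.00081). Pet112, a subunit of the enzyme that makes mitochondrial glutaminyl-tRNA, fell by 0.95 ± 0.18 (limma, adjusted p = 0.00236), and the elongation factor gene Gfm1 fell by 0.76 ± 0.10 (limma, adjusted p = 0.000315). None of the 31 and none of the 22 passed in cKO hearts, beside 2.53% of all genes. At an unadjusted p under 0.05 limma gave 1 higher and 1 lower of the 31 there and 0 of the 22. Beside these stood 1338 higher and 804 lower of all 13120 genes tested. After TAC 7 of the 22 mitochondrial factors were higher in cKO than in floxed hearts and none was lower, beside 8.39% of all genes higher.

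Genes that make and export cytosolic tRNA gave few calls in floxed TAC hearts, with 1 of 20 higher and 2 lower, or 0 and 2 with RLE scaling. Maf1, the repressor of RNA polymerase III, fell by 0.79 ± 0.12 (limma, adjusted p = 0.000673). The tRNA splicing subunit gene Tsen54 rose by 0.62 ± 0.22 (limma, adjusted p = 0.0478), and the polymerase III subunit gene Polr3g had 0.67 ± 0.29 and did not pass (limma, adjusted p = 0.09). Interferon-response genes, known to include Wars, gave 4 of 16 higher and 1 lower, beside 27.9% and 14.5% of all genes. Wars itself had 72.2 and 67.8 CPM in floxed sham, 67.3 and 68.4 CPM in floxed TAC, 57.9 and 65.3 CPM in cKO sham and 56.8 and 60.0 CPM in cKO TAC, with both floxed groups above both cKO groups and no comparison past the threshold.

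Over the 8 libraries the genes closest to Wars by Pearson correlation of log2(CPM + 1) were Exosc5, Marveld1, Hk2, Cdk5 and Nvl, with r between 0.920 and 0.943. The closest to Iars were Rnft1, Stxbp3a, Braf, Slc25a45 and Armcx1, with r between 0.946 and 0.964. These are descriptions over libraries that share groups and depth.

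Some members share sequence or position with other genes. Of the 50-base stretches of the Aars transcript 22.4% also occur in Exosc6, which lies on the same strand and was at 3.12 to 6.41 CPM, and 8.61% of those of Iars occur in Gm4849. For the remaining members the share was at most 0.573%. Hars and Hars2 overlap on opposite strands of chromosome 18, as do Mars and Ddit3, Farsb and Sgpp2, Wars and Wdr25, Yars and C77080, Ears2 and Ubfd1, Fars2 with Lyrm4 and Nrn1, and Iars2 and Rab3gap2 on their own chromosomes. The kit keeps strand per the labels, but the strand setting of the counting is not given in the sources used here. Whether shared reads take part in these values was not tested.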

How the data were processed

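Left ventricular mRNA was measured in 8 libraries. Per the submitters' processing notes the authors used Bowtie2 2.2.6, HTSeq and DESeq2 with mm10, while the annotation was not given in the sources used here, nor were counting settings. The deposited values are CPM for 13439 genes, and 100% of them came to whole reads within 0.02, so reads were recovered. Of the reads in a library 0.153% to 0.201% belonged to genes not listed. A count of 0 allows up to 3 reads, or 0.137 to 0.291 CPM, for counting error only. From the deposited CPM, log2(CPM + 1) was fitted with limma 3.58.1 (trended variance, R 4.3.3) over all 8 libraries, without a replicate block. The fold scale understates changes of low genes. The test kept 13120 genes that reached 1 CPM in 2 or more libraries and removed 319, with Benjamini-Hochberg adjustment over all of them and a threshold of 0.05.

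Alternatives were pseudocounts of 0.5 and 2 CPM, no filter, RLE and TMM scaling, limma-voom, edgeR 4.0.16 and DESeq2 1.42.0 on the recovered reads, a fit of only the groups compared, the replicate block, and leaving out libraries. On the recovered reads edgeR called 5559 genes for TAC in floxed hearts, 346 for TAC in cKO hearts, 3070 for cKO against floxed after TAC and 1601 for the interaction. The limma fit was also run on simulated data, but no outcome of that run is given. It therefore does not show how limma or the alternatives perform on these libraries. Coordinates, overlaps and lengths came from GENCODE M21 (mm10) and promoters from RefSeq (GRCm38.p6). Library values are given for the 6 cytosolic and 4 mitochondrial members with the largest differences past the threshold for TAC in floxed hearts, for the 3 cytosolic and 2 mitochondrial members with the largest differences in every other comparison, and for members past the threshold with opposite signs in 2 comparisons. Of each partner list the 3 genes with the largest floxed difference are named, and the 5 genes nearest Wars and Iars. Marker lists covered cardiomyocytes, macrophages, fibroblasts, endothelium and atria. In floxed TAC hearts 0 of 7 endothelial markers passed and 1 of 4 atrial markers rose. The members and lists were chosen with earlier results of these data known.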

Additional observations from a re-analysis of the deposited data

Results flagged for a closer look

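For 5 members the TAC response differed between genotypes by the interaction test in limma. Subtracting the floxed from the cKO response gave -0.65 for Gars, -0.52 for Sars, -0.70 for Tars, 0.84 for Aars2 and 1.39 for Vars2, in log2(CPM + 1). Both cKO TAC libraries lay below both floxed TAC libraries for Gars, Sars and Tars, and above them for Aars2 and Vars2. These genes were selected on the same libraries, so the separation is not further evidence, and its share over all genes was not counted. Groups of 2 libraries are too small for a search for single outlying libraries.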

How the results depend on the processing

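Of 198 recomputed counts of members past the threshold, 80 belong to comparisons with 0 calls in every setting. Of the other 118, 81 stayed within 1.5 times the reported count and 37 moved further. Of 595 recomputed values of called members 138 did not pass. For cKO against floxed after TAC the 4 cytosolic calls became 2 with RLE scaling, 2 with TMM scaling, 8 with limma-voom, 2 with edgeR, 0 with DESeq2 and 0 in a fit of only the groups compared, where the 4 mitochondrial calls became 2. For the interaction the 3 cytosolic calls became 1 with RLE scaling, 1 with TMM scaling, 0 with edgeR and 0 with DESeq2. Without the 3 libraries high in Myl7 its calls could not be judged, since every group but floxed TAC held a single library. Leaving out 1 library at a time gave 5 to 9 cytosolic and 3 to 8 mitochondrial calls for TAC in floxed hearts, the lowest without floxed sham 2 or floxed TAC 1 and without floxed sham 1. It gave 0 to 6 and 1 to 4 calls for cKO against floxed after TAC, 0 to 3 and 0 to 3 for the interaction, and 0 to 0 for the other comparisons. The cause was not tested, though each such fit holds fewer samples. Libraries of the same replicate number did not deviate together, with r between -0.105 and 0.0812 over 6 pairs of groups. With the replicate block 9 cytosolic and 7 mitochondrial members passed for TAC in floxed hearts, 4 and 4 for cKO against floxed after TAC, and 3 and 2 for the interaction, with Hars2 lost in the first, and Hars lost and Vars gained in the second. With the floxed TAC numbers crossed, an alternative chosen after seeing the data, these counts were 9 and 6, 3 and 4, and 3 and 2, with Hars2 and Nars2 lost in the first and Hars in the second. With 2 libraries per group, calls near the threshold depend on single libraries, and the lowest member count of 62 reads sets the coarsest counting precision.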

Other observations

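Outside the 36 members, Tarsl2, a further threonine enzyme gene, had 56.0 and 52.5 CPM in floxed sham, 31.2 and 30.9 CPM in floxed TAC, 65.6 and 52.7 CPM in cKO sham and 49.3 and 45.2 CPM in cKO TAC. Its difference was -0.78 ± 0.13 in floxed hearts (limma, adjusted p = 0.00137) and 0.59 ± 0.13 for cKO against floxed after TAC (limma, adjusted p = 0.0128). Tarsl2 thus fell where Tars rose. In both comparisons it moved in the direction of the called mitochondrial members, and the threonine pair above did not include Tarsl2. This gene was named after its values were seen.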
